A study of Mus musculus with 5 samples.

Results

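The ribosomal protein genes encode the protein part of the ribosome, the particle that reads messenger RNA and joins amino acids into protein. They were taken here from the gene symbols: each symbol that starts with Rpl or Rps and then a digit, with at least 100 UMIs (unique molecular identifiers, 1 per captured RNA molecule) over both heart libraries and no "-ps" in its name. Of 101 matching symbols, 9 held -ps, the usual mark of a pseudogene, and 2 fell short of the minimum: Rpl10l with 0 UMIs and Rps6ka6 with 15. The lowest members above it were Rpl39l with 232 and Rpl3l with 481. The remaining 90 members, of 31053 genes in all, comprised 43 large subunit genes, 30 small subunit genes, 7 copies (paralogs such as Rpl3l, Rpl22l1 and Rps27rt) and 10 matches that are no ribosomal protein. The last 10 are the Rps6k kinase genes, whose name comes from their substrate ribosomal protein S6, and Rps19bp1, a protein that binds S19. They held 0.153% of member UMIs at 2 months and 0.175% at 18 months, so summed shares rest on the other 80 members, while counts of single members hold all 90.

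The samples came from C57BL/6 mice of different ages, with no other genotype or agent in the labels. Non-cardiomyocytes of the heart gave 1 library at 2 months and 1 at 18 months by the droplet 3′ method. Lymphocytes of the mediastinal lymph nodes, which drain the heart, labelled as CD4+ and CD8+ T cells, gave 1 library by the 5′ method that pools mice of 2, 6, 12 and 18 months under 8 hashtags, antibody tags that mark which sample a cell came from. Hearts were digested with collagenase and dispase and the cells were sorted and mixed at different ratios, so cell numbers are not tissue proportions, and the number of mice behind each library was not given in the sources used here. With 1 heart library per age, age and library cannot be told apart: every interval below is a 95% interval for counting error only, and no p-value was computed between ages. The ages of the lymph node hashtags were not used here, and levels are not compared between the 3′ and 5′ libraries.

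Each ribosome carries 1 copy of nearly every one of these proteins, so their genes are transcribed together at high levels, and growing cells hold more of their mRNA. Their mRNAs begin with a run of pyrimidines (C and U, a 5′ terminal oligopyrimidine tract) through which the kinase mTOR and the protein Larp1 set how fast they are translated. Naive lymphocytes are known for a high share of ribosomal protein mRNA and mature neutrophils, which make little protein, for a low one. A share of UMIs is relative: fewer ribosomal protein mRNAs and more of all other mRNAs cannot be told apart.

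The start of transcription is shown for members on which results below turn, with 10 bases before and 20 bases from the RefSeq start (GRCm38.p6, written along the gene's strand). Capitals mark the longest run of C and T, the first where runs tie: Rps27rt and Rps6kl1 each hold another run of the same length. Rpl35, Rpl13a and Rpl38 took a larger part of the member UMIs at 18 months in every heart cell class. Rps27 and its near copy Rps27rt can share reads. Rpl15 took a smaller part in most classes. Rps12 fell in B cells, but took a larger part in 8 of 12 classes and a smaller part in 4. Rpl3l is a copy of muscle cells, and Rps6kl1 is a match that is no ribosomal protein.
Rpl35: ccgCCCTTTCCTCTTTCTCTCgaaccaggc
Rpl13a: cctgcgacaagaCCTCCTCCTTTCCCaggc
Rpl38: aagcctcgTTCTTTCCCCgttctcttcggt
Rps27: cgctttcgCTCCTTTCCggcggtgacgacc
Rps27rt: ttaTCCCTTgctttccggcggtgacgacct
Rpl15: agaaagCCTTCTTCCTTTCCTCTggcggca
Rps12: tcatgcggccaccgccggCCTTTTCCCCTg
Rpl3l: ttctagctctgtcatttgaCCTCTggtgcc
Rps6kl1: ccccaCCCCCgcccccaggcacctgcggaa

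These lie at chr2:39005112-39005141 on the minus strand (Rpl35), chr7:45128726-45128755 minus (Rpl13a), chr11:114668570-114668599 plus (Rpl38), chr3:90213629-90213658 minus (Rps27), chr9:114982720-114982749 minus (Rps27rt), chr14:18270967-18270996 minus (Rpl15), chr10:23787190-23787219 minus (Rps12), chr17:24727816-24727845 plus (Rpl3l) and chr12:85151245-85151274 minus (Rps6kl1). Among the sequences shown, the longest runs were 18 bases in Rpl35, 17 in Rpl15 and 14 in Rpl13a. Rpl27a, not shown, had a run of 20. Of 90 members, 69 had a RefSeq promoter entry. A run of C and T of at least 8 bases on the gene's own strand lay in this window in 35.2% of 54 subunit genes, in 1 of 7 copies, in 1 of 8 non-ribosomal matches and in 11.2% of all 27025 symbols. A run of at least 5 that covers the start itself was present in 29.6% of the subunit genes and in 8.65% of all symbols. The match is a description of annotated starts, which can lie some bases away from those used in these cells.

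After filtering, 10914 cells of the 2-month and 7828 cells of the 18-month heart library were kept, with 102757089 and 53789508 UMIs and medians of 8041 and 4374 UMIs per cell. They fell into 33 clusters, 9 of which stayed unnamed (7.99% and 9.16% of cells), and 12 cell classes had at least 50 cells in each library. The labelled non-cardiomyocyte fraction still held 688 and 146 cells with cardiomyocyte markers, called remaining cardiomyocytes below. The defining markers of 10 classes differed by under 4-fold between the libraries, and 1 dendritic marker differed by 4.12-fold. The endocardial class stood apart: Npr3, its first marker, was at 24.2 CPM (counts of a gene per 1e+06 UMIs) at 2 months and 1213 at 18 months, and Hapln1 at 535 and 52.4. Lymphatic markers moved the other way there, with Ccl21a at 1684 and 248 CPM and Mmrn1 at 495 and 125, so its values compare unlike sets of cells. The heart libraries shared 42 barcodes, and without them 3 classes were still called lower and 2 higher.

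Among the members with most UMIs were Rps24 (4343 CPM at 2 months and 4565 at 18 months), Rps29 (4116 and 4973), Rpl13 (4000 and 3678) and Rpl23 (3402 and 3388). Over all kept cells, the members made up 16.5% of UMIs at 2 months and 16.6% at 18 months. At 2 months the share ran from 31.2% in T cells to 5.09% in neutrophils, a 6.12-fold range, and at 18 months the range was 7.31-fold. Within a class, the 18-month share was between 0.879 and 1.41 times the 2-month share. Lymphocytes stood at the top: T cells held 31.2% at 2 months and 30.0% at 18 months, group 2 innate lymphoid cells (ILC2, tissue-resident cytokine producers) 29.6% and 32.9%, and B cells 29.5% and 25.9%. Dendritic cells followed with 21.8% and 21.9%, then macrophages with 14.97% and 14.63% and fibroblasts with 13.9% and 14.5%. Among the other cells, remaining cardiomyocytes held 11.5% and 12.5%, smooth muscle cells 10.2% and 10.7%, endocardial cells 9.97% and 14.0%, and pericytes 8.64% and 7.63%. Vascular endothelial cells held 6.49% and 6.67%, and neutrophils, short-lived phagocytes that enter the blood with little protein synthesis, 5.09% and 4.5%. The large subunit genes took between 49.99% and 55.04% of the UMIs of all large and small subunit genes in every class and library.

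**Figure D1:**
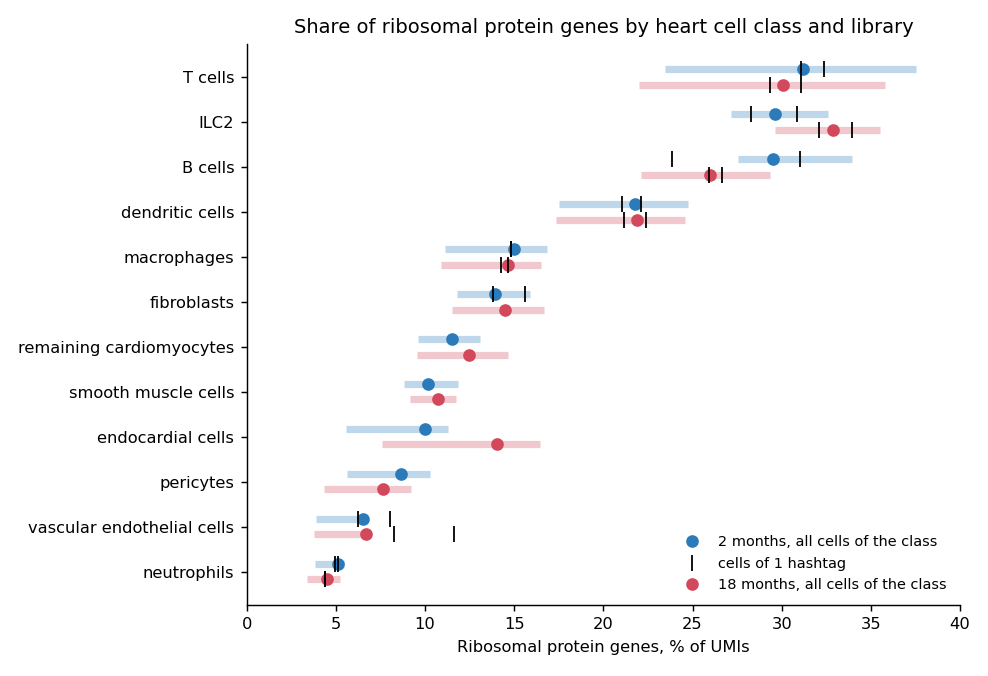
Share of UMIs from the 90 members (x axis, percent) in 12 heart cell classes at 2 months (blue) and 18 months (red); points are all cells of a class summed, bars the interquartile range of its cells, and black ticks the cells of 1 hashtag where at least 20 carried it. The classes spread from 4.5% to 32.9%, and the pair of points of a class lie farthest apart in endocardial cells, B cells and ILC2.

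A class was called lower or higher when its share changed by at least 1.1-fold and the counting interval left out no change. By this rule 3 classes were lower at 18 months (B cells, pericytes and neutrophils), 2 were higher (ILC2 and endocardial cells) and 7 were neither. The log2 ratio of 18 over 2 months was -0.19 in B cells, -0.18 in pericytes and -0.18 in neutrophils. It was 0.15 in ILC2 and 0.49 in endocardial cells. In the 7 others it lay between -0.05 in T cells and 0.11 in remaining cardiomyocytes, with -0.03 in macrophages, 0.04 in vascular endothelial cells and 0.06 in fibroblasts. The intervals are narrow because the sums are large (the widest was -0.20 to -0.16, in pericytes), and they leave out the spread between mice.

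Single members were compared by their CPM in each class, and called at a change of at least 0.32 on the log2 scale with an interval that left out no change, given at least 100 UMIs over both libraries. Between 77 and 88 members reached that number in a class, which gave 995 member-by-class tests. Of these, 78 were higher at 18 months, 7.84%, beside 11.5% of all 70937 gene-by-class tests. Another 50 were lower, 5.03%, beside 7.62% of all tests. Both shares were below that background. Endocardial cells alone gave 64 of the 78 higher calls. Without that class 14 remained.

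**Figure D2:**
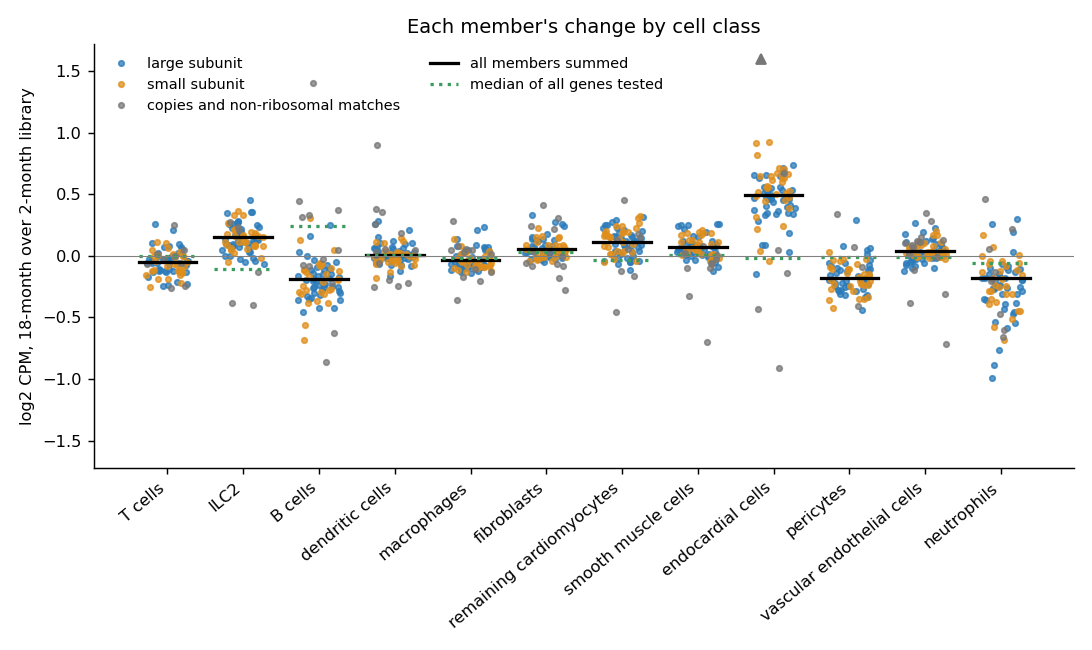
log2 ratio of each member's CPM, 18-month over 2-month library (y axis), in 12 classes; each point is 1 member with at least 100 UMIs, blue for large subunit, orange for small subunit and grey for copies and non-ribosomal matches. Black lines give the ratio of all members summed and green dotted lines the median of all genes tested; the triangle is Rps6ka2 in endocardial cells, at 3.73 and beyond the axis. The members keep close together around the class value and spread most in B cells, endocardial cells and neutrophils.

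In vascular endothelial cells, the class with the most cells over both libraries (2804 and 2372), the members were nearly level. Of 88 members, 0 were higher, beside 6.51% of all 9564 genes tested there, and 2 were lower, beside 5.84%. Both were kinase genes. Rps6kl1 stood at 36.6 CPM at 2 months and 22.3 at 18 months (log2 ratio -0.71, interval -1.01 to -0.42), and Rps6ka3, which encodes the kinase RSK2, at 243 and 186 (-0.39, interval -0.49 to -0.28). The standard deviation of the members' log2 ratios within the class was 0.13, of which counting noise alone gives 0.061. Without the kinase genes and Rps19bp1 it was 0.088, with 0.036 from counting. Rps6kl1 and Rps6ka3 took their highest share of member UMIs in these cells among the 12 classes, at both ages. The member share itself is low in these cells, which raises other genes on this scale. By CPM, Rps6kl1 was at 18.8 in endocardial and 36.6 in vascular endothelial cells at 2 months. At 18 months it was at 22.4 and 22.3.

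Fibroblasts, which make the extracellular matrix, had 1 of 86 members higher, Rpl27 (340 and 426 CPM), and 0 lower. The background there was 10.3% higher and 5.56% lower. In macrophages the only member past the limit was Rps27rt, lower, beside 6.68% of all genes lower and 7.06% higher. In remaining cardiomyocytes it was Rps28, higher at 1016 and 1274 CPM, beside 8.2% of all genes higher and 7.04% lower. In dendritic cells Rps6ka3 (48.4 and 62.1) and Rps6ka2 (7.01 and 13.1) were higher, beside 10.1% of all genes, with 10.4% of all genes lower there. These single members are named because they are the few past the limit. In T cells and smooth muscle cells 0 of 82 and 0 of 84 members passed it in either direction by CPM. The background was 8.25% higher and 6.36% lower in T cells, and 6.26% higher and 4.39% lower in smooth muscle cells. Rps6ka3 in smooth muscle cells took a smaller part of the member UMIs (log2 -0.77, interval -1.57 to -0.06). Rps27rt, an intronless copy of Rps27 that lies on chromosome 9, recurred: its part of the member UMIs fell from 0.672 to 0.526 per 1000 in vascular endothelium, from 0.361 to 0.286 in fibroblasts and from 0.416 to 0.331 in macrophages. Rps27 itself did not fall there, at 17.5 and 19.2 per 1000 in vascular endothelium, 15.8 and 16.9 in fibroblasts and 16.0 and 16.4 in macrophages. Reads of these near-identical copies can be assigned to either, so the value of Rps27rt is uncertain.

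B cells, which carry surface immunoglobulin and give rise to antibody-secreting plasma cells, had 15 of 85 members lower, 17.6%, beside 9.56% of all 8025 genes, and 3 higher, beside 38.4%. The median of all genes tested was itself 0.24 above no change on the log2 scale, against -0.19 for the median member. Of 78 ribosomal proteins and copies, 14 were lower and 0 higher, and 7 had a ratio above 0. Rps12 fell from 6759 to 4215 CPM (log2 -0.68, interval -0.70 to -0.66), and within the member UMIs from 22.9 to 16.2 per 1000. Rps27 went against the class, with 22.9 per 1000 at 2 months and 32.2 at 18 months. Rps27l, a copy of Rps27 known as a p53 target, went from 150 to 97.3 CPM. Its log2 ratio within the member UMIs was -0.44, but -0.058 (interval -0.23 to 0.11) under the authors' cell filter and 0.045 in thinned cells. Among the kinase genes, Rps6ka5 (MSK1) rose from 14.0 to 36.9 CPM, Rps6kb1 (S6K1, which phosphorylates S6 downstream of mTOR) from 54.0 to 73.7 and Rps6ka3 from 23.8 to 30.9, and Rps6ka1 (RSK1) fell from 37.1 to 20.4.

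The make-up of the B cells differed between the libraries. Sub-clustering, added after the values were seen, gave 6 groups with at least 20 cells in each library. Sub-clusters 0 and 1, led by Tppp3 and S100a6 and by Cr2, the complement receptor CD21, held 42.9% and 41.0% of the B cells at 2 months and 4.90% and 2.30% at 18 months. Their shares were 33.0% and 31.0% at 2 months and 29.9% and 28.6% at 18 months. Sub-clusters 2, 4 and 5 held most 18-month B cells. Sub-cluster 2 (59 and 521 cells) had 26.9% and 27.0%, sub-cluster 4 (21 and 227 cells) 29.1% and 27.0%, and sub-cluster 5, led by Sox4 and with Vpreb3 of young B cells (28 and 147 cells), 20.4% and 21.2%. Sub-cluster 3, led by the plasma cell gene Jchain (39 and 33 cells), had 11.3% and 18.6%. With each sub-cluster weighted equally the log2 ratio of the class was 0.0055, no longer lower. This gives the few cells of sub-cluster 3, with a log2 ratio of 0.71, the weight of any other sub-cluster. The ratio was -0.14, -0.12 and -0.11 in sub-clusters 0, 1 and 4, 0.0043 in sub-cluster 2 and 0.06 in sub-cluster 5. The part of this make-up in the class value was not tested further.

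The heart matrices also carry hashtags, whose meaning the labels leave unstated: 09 and 10 in the 2-month and 11 and 12 in the 18-month library, found mostly on leukocytes. B cells of Hashtag09 (866 cells) had a share of 31.0%, while those of Hashtag10 (65 cells) had 23.9%, below the 26.7% and 25.9% of Hashtag11 and Hashtag12. Hashtag10 against either 18-month hashtag gave log2 ratios of 0.16 and 0.12, the reverse direction. In these pairs the ratio of Rps12 within the member UMIs was -0.0080 and -0.048, in place of -0.50, and that of Rps6ka3 was -0.12 and -0.31, in place of 0.56. Depth differed as well: the B cells had a median of 9218 UMIs at 2 months and 4351 at 18 months. Among B cells of 8000 to 16000 UMIs the share was 32.616% at 2 months (441 cells) and 28.004% at 18 months (64 cells). Between 4000 and 8000 UMIs the share was 29.1% (345 cells) and 26.7% (616 cells). Between 2000 and 4000 it was 23.4% (49 cells) and 23.7% (299 cells).

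**Figure D3:**
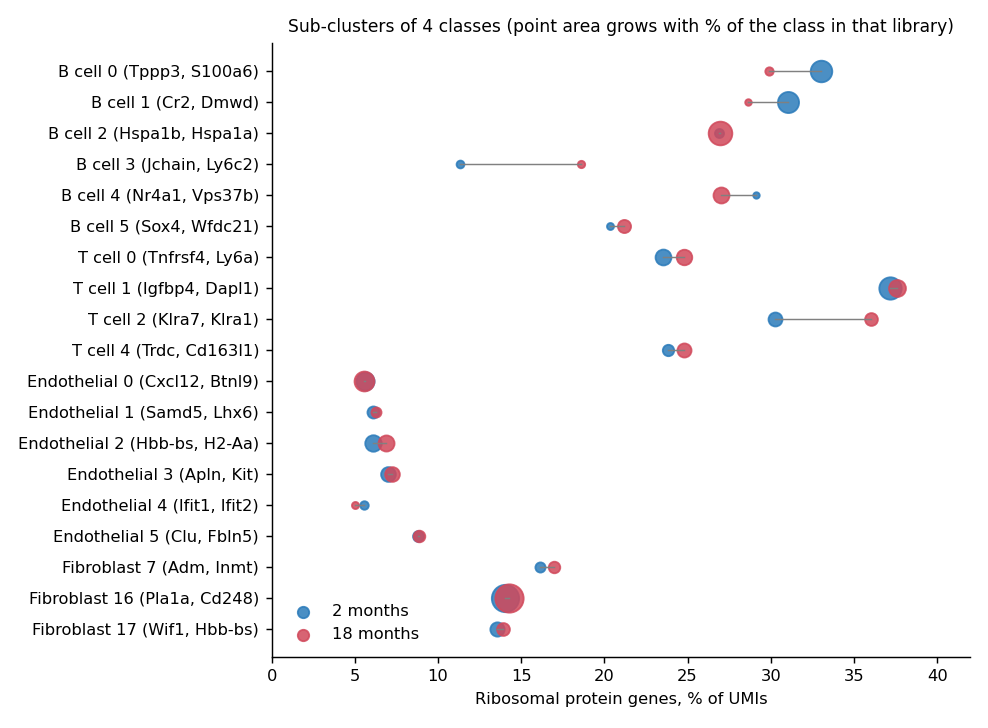
Share of UMIs from the members (x axis, percent) in sub-clusters of B cells, T cells, vascular endothelial cells and fibroblasts with at least 20 cells in each library, at 2 months (blue) and 18 months (red); the 2 leading genes stand in brackets and the point area grows with the part of the class that the sub-cluster makes up. The large blue points of B cell 0 and 1 lie near 33.0% and 31.0% and the large red point of B cell 2 at 27.0%.

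Among T cells, sub-cluster 1, led by Igfbp4, Dapl1 and Lef1 of naive cells, had the highest share, 37.2% at 2 months and 37.6% at 18 months, and made up 46.2% and 25.6% of the T cells. Gamma delta T cells, led by Trdc, had 23.8% and 24.8%, and sub-cluster 0, led by Tnfrsf4 and with Ctla4 and Cd4, 23.5% and 24.8%. Sub-cluster 2, led by the natural killer receptor genes Klra7 and Klra1, held 30.3% and 36.0% (46 and 43 cells). A Gzmk and Gzma group, cytotoxic granule genes, had 2 cells at 2 months and 49 at 18 months, with 26.1% in the latter. The ratio of the whole class was -0.05, although each sub-cluster with at least 20 cells in each library went the other way. Their log2 ratios were 0.08 in sub-cluster 0, 0.01 in sub-cluster 1, 0.25 in sub-cluster 2 and 0.06 in gamma delta T cells. The part of the make-up in the class value was not tested.

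ILC2 (80 and 105 cells) rose by 0.15 on the log2 scale. The hashtags did not overlap, with 28.3% and 30.9% at 2 months and 32.1% and 34.0% at 18 months. Over the 7 classes with 2 hashtags in each library, 37.6% of 43315 gene-by-class values did not overlap either. Of 79 members 7 were higher, beside 5.39% of all 1744 genes tested, and 0 were lower, beside 15%. The 7 were Rps21, Rpl36a, Rpl13a, Rps12, Rpl27, Rpl38 and Rps28, with Rpl13a at 599 and 820 CPM. With cells thinned to 1000 UMIs the class ratio was 0.11 and fell below the limit for a call.

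In neutrophils (172 and 908 cells) 22 of 82 members were lower, 26.8%, beside 9.51% of all 3542 genes, and 0 were higher, beside 4.21%. The hashtag shares of summed UMIs were 5.14% and 4.97% at 2 months and 4.40% and 4.41% at 18 months. The median share per cell overlapped between the libraries, with 4.34% and 4.95% at 2 months and 4.38% and 3.97% at 18 months. Free RNA from other cells, estimated from markers of other lineages, differed too: it was 13.4% of neutrophil UMIs at 2 months and 6.03% at 18 months. After subtraction the shares were 3.29% and 3.71%, the reverse direction. With TMM scaling, which sets the bulk of genes level, the log2 ratio was 0.04.

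Within the member UMIs of neutrophils, 4 of 82 members were higher, beside 13% of all genes set against the same UMIs, and 10 were lower, beside 4.32%. The member share was lower at 18 months, which shifts other genes upward on this scale. By CPM, 4.21% of all genes were higher and 9.51% lower. The shares per member UMI are therefore no even background for the members. Rpl10a fell from 3.155 to 1.799 per 1000 member UMIs (log2 -0.81, interval -1.14 to -0.47), Rpl12, of the ribosomal stalk base, from 4.95 to 3.03, and Rpl14 from 4.43 to 2.94. Rpl13a rose from 1.27 to 1.77 per 1000, Rpl27 from 3.850 to 5.196 and Rpl35 from 3.097 to 4.011. These values rest on few UMIs: 44 and 257 of Rpl13a, and 109 and 261 of Rpl10a. With free RNA subtracted Rpl14 was at 0.19 in place of -0.59.

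Pericytes, the mural cells of capillaries (172 and 53 cells), had 8 of 77 members lower, beside 6.55% of all 2717 genes, and 0 higher, beside 5.93%. The lowest ratio was that of Rpl23a, at 1057 and 778 CPM. The class ratio of -0.18 was -0.12 with free RNA subtracted (12.6% and 7.29% of UMIs), below the limit for a call. In endocardial cells (50 and 157 cells) 64 of 79 members were higher, beside 16.6% of all 2451 genes, and 2 were lower, beside 18.6%. Rps27 stood at 1617 and 3071 CPM and Rps6, the substrate of the S6 kinases, at 810 and 1527. The 2 lower members were Rps6ka3 (126 and 67.3 CPM) and Rps27l (358 and 265). Rps6ka2 (RSK3) had 6 UMIs at 2 months and 200 at 18 months, 16.1 and 214 CPM. Npr3 was seen in 5 of 50 cells at 2 months and 81 of 157 at 18 months. Cells with an Npr3 UMI had a share of 12.5% and 15.2%, and cells without one 9.58% and 12.5%, where the 2-month value with Npr3 rests on 5 cells. The part of this make-up in the result was not tested.

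Some members changed their part of the member UMIs in the same direction everywhere. Of 893 genes with enough UMIs in all 12 classes, 8 were higher at 18 months per member UMI in every class, 0.896%, and 6 of these were among the 76 members tested: Rpl13a, Rpl35, Rpl38, Rps28, Rps21 and Rps29. Txnip, an inhibitor of thioredoxin, was among the other two. Another 4 genes were lower in every class, 0.448%, among them the member Rps14, with Eif5a, a translation elongation factor, and Igkc, the kappa light chain of B cells. The classes share their 2 libraries, so these are 12 views of 1 pair of libraries and not 12 replicates. Member UMIs are the denominator here, so members centre near 0 in each class, while other genes shift with the class ratio. Other genes can thus less easily keep 1 direction in every class. The shares of all genes are therefore no even background for the members.

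Rpl13a, whose protein also has a role outside the ribosome in interferon-gamma treated cells, went from 2.31 to 2.65 per 1000 member UMIs in fibroblasts (log2 0.20, interval 0.14 to 0.26). In vascular endothelium it went from 2.055 to 2.407 and from 2.47 to 3.07 in T cells. Over the 12 classes its log2 ratio ran from 0.11 in macrophages to 0.48 in neutrophils, with a median of 0.23, and its interval left out 0 in 9. Rpl35, at the exit of the ribosome's peptide tunnel, had a median of 0.19 and intervals above 0 in 11 of 12 classes. In macrophages it went from 7.59 to 9.16 per 1000. Rps29, a small zinc-binding protein, was above 0 with its interval in all 12, with a median of 0.13, and Rps21 in 11 with a median of 0.13. Rpl38, known from the mouse mutant Tail-short, had a median of 0.17 and Rps28 one of 0.13. Both were near 0 in 1 class, at 0.03 in macrophages for Rpl38 and 0.00 in neutrophils for Rps28. All of these are small changes, and only in B cells and neutrophils did any of them reach the limit for a call within the members, apart from Rpl35 in pericytes.

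In the other direction Rps14 had a median of -0.05, with intervals below 0 in 4 classes. Rpl15 was lower in 10 of 12 classes, for example from 10.4 to 9.43 per 1000 in vascular endothelial cells. Length of the transcript went weakly with the change: over 73 subunit genes, the median log2 ratio over classes and the transcript length gave a Spearman coefficient of -0.30, a description across genes that share the same libraries. Rps29, Rpl38, Rps28 and Rps21 are short (271 to 394 bases). Of similar length, Rps27 (345 bases) had a median of 0.12 and Rpl36 (383 bases) a median of 0.07. The 24 shortest genes (up to 583 bases) had a median change of -0.0052, with 10 above 0. The 24 longest had -0.04, with 8 above 0. The part of length in these changes was not tested.

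**Figure D4:**
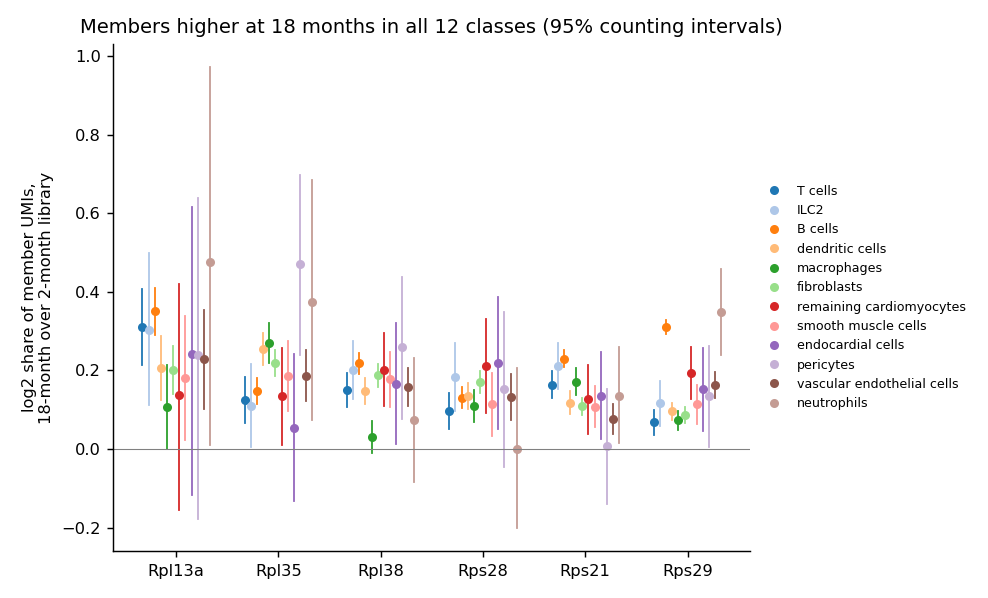
log2 ratio of each gene's share of member UMIs, 18-month over 2-month library (y axis), for the 6 members above 0 in all 12 classes; points are classes by colour and lines 95% counting intervals. All points lie above 0, closest to it Rps28 in neutrophils and Rps21 in pericytes, with the widest lines in neutrophils and pericytes.

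The mix of ribosomal proteins also differed between cell classes, given here as a description. At 2 months the standard deviation of a subunit gene's log2 part of member UMIs over the 12 classes had a median of 0.24 over 73 genes, from 0.12 in Rpl27a to 0.59 in Rps9. Neutrophils stood apart at both ages: of 73 subunit genes, 35 had their lowest part there at 2 months and 33 at 18 months, and 16 and 15 their highest. Rps9 made up 55.9 and 63.3 per 1000 member UMIs in neutrophils, against 12.3 to 18.3 in the 11 other classes at 2 months. Rps27 at 41.2, Rps27a, a fusion of ubiquitin and S31, at 40.9, and Rpl37 at 38.6 per 1000 were likewise highest there at 2 months. Rpl3, at the peptidyl transferase centre, was at 2.72 and 2.22 per 1000 against a median over the classes of 8.51 at 2 months. Rps19 was at 6.86 and 5.91. Remaining cardiomyocytes had the highest parts of Rps2 (25.6 and 24.3 per 1000) and Rpl24 (18.0 and 16.0), among others.

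Among the copies, Rpl3l is known as a striated muscle form that takes the place of Rpl3. It had a UMI in 17.9% of remaining cardiomyocytes at 2 months (123 of 688, interval 15.09 to 20.95) and 16.4% at 18 months (24 of 146, interval 10.8 to 23.5). It made up 5.22% and 5.91% of the UMIs of Rpl3 and Rpl3l together, with overlapping intervals (4.47 to 6.05 and 4.11 to 8.21). Neutrophils were the other class with Rpl3l, in 8.14% of cells (14 of 172) and 6.50% (59 of 908). In the 10 remaining classes at most 0.662% of cells had a UMI, a level that free RNA can give. The median depth was 3735 and 3426 UMIs in neutrophils and 17212 and 16038 in dendritic cells, the class with 0.662%. Estimated free RNA was 13.4% and 6.03% of UMIs in neutrophils and 6.85% and 3.58% in dendritic cells, and its part in the Rpl3l of neutrophils was not tested. Rpl39l, known from testis, had 121 and 106 UMIs in the kept cells, 1.18 and 1.97 CPM. Rpl22l1, a copy of Rpl22, was at 508 and 408 CPM over all cells and highest in T cells at 2 months (897 CPM). Rpl36al was at 258 and 294 CPM, Rps27l at 247 and 227, and Rpl7l1 at 60.5 and 56.6.

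The S6 kinase genes differed by cell class. Rps6ka3, Rps6kb1 and Rps6kb2 had their highest CPM in vascular endothelial cells at both ages, with Rps6kb1 at 113 and 120 CPM and Rps6kb2 at 29.5 and 30.9. Rps6ka1 and Rps6ka5 were highest in ILC2, Rps6ka1 at 87.8 and 102 CPM. Rps6ka4 was highest in dendritic cells, at 35.6 and 30.5 CPM. Rps6kc1 was at most 16.1 CPM in any class, and Rps19bp1 was at 34.2 and 32.3 CPM over all cells.

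Genes with a related role were taken from lists chosen with earlier results of these data known. Of the 7 ribosomal proteins outside the pattern (among them Rplp0, Rplp1, Rplp2, Rpsa, Fau and the ribosome-bound Rack1), 6 of 7 were higher in endocardial cells, 4 of 7 lower in B cells and 4 of 7 lower in neutrophils, beside 16.6%, 9.56% and 9.51% of all genes. Rplp0, the stalk protein, went from 4669 to 2770 CPM in B cells. Of the translation factors, 8 of 38 were lower and 1 higher in B cells, beside 9.56% and 38.4% of all genes, with Eef1b2 at 1482 and 1011 CPM and Eif5a at 575 and 394. In neutrophils 6 of 28 were lower and 0 higher, beside 9.51% and 4.21%, and in vascular endothelial cells 0 of 38 passed either limit, beside 6.51% of all genes higher and 5.84% lower. Ribosome biogenesis genes, which build the particle in the nucleolus, had 14 of 63 lower and 3 higher in B cells, against the same background, with Nhp2 at 79.7 and 49.4 CPM. In vascular endothelial cells 5 of 62 were higher, near the 6.51% of all genes, and 0 lower. Of the regulators of these mRNAs, Myc went from 90.1 to 55.7 CPM in B cells, where 6 of 12 were higher and 1 lower, beside 38.4% and 9.56% of all genes. Mitochondrial ribosome genes, a separate set that serves the organelle, had 13 of 70 lower and 0 higher in remaining cardiomyocytes, beside 7.04% and 8.2% of all genes, with a list median of -0.23 against -0.04 for all genes there.

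In the lymph node library, 8967 of 12804 filtered cells carried 1 hashtag, and 5856 of them fell into 9 named T cell states (median of 2881 UMIs over all kept cells). Of 23 clusters, 5 with 20.1% of cells stayed unnamed, for too few markers, leading genes against the name or low depth, and entered no state. Their shares ran from 9.86% in cluster 21 (175 cells, led by Gm26917 and Kcnq1ot1, median of 877 UMIs) to 37.4% in cluster 15 (689 cells, led by Ly6c2 and Fcgrt, with Cd8b1, median of 1589 UMIs), beyond the named states at both ends. Among the named states the share ran from naive-like CD8 cells, 37.2%, to follicular helper CD4 cells, 19.4%, a range of 17.9 percentage points or 1.92-fold. Memory CD8 cells with Klr receptor genes held 34.8%, interferon-stimulated T cells 32.1% and Gzmk effector CD8 cells 27.7%. Gamma delta T cells had 25.5%, memory CD4 cells 25.3%, regulatory T cells (Foxp3, suppressors of immune responses) 24.1% and cycling cells 24.0%. The hashtag samples of these 4 states overlapped.

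The highest state recurred over the 8 hashtag samples, each given here as a sample of unstated age, and the lowest over most. Naive-like CD8 cells were the highest state in all 8, from 35.7% to 38.3% with a median of 37.3%. Klr memory CD8 cells ran from 32.1% to 36.3% with a median of 34.7%, overlapping the naive-like cells. Follicular helper cells, which help B cells in germinal centres, ran from 17.5% to 21.9% over the 6 hashtags with at least 20 such cells, with a median of 19.04%. They were the lowest state in 5 of these 6, and in Hashtag7 cycling cells were lowest, at 18.7%. Regulatory T cells ran from 23.2% to 25.5% and were below the other T cells in all 8. The naive-like and follicular helper ranges did not overlap. Interferon-stimulated cells came mostly from Hashtag1 (60.9% of them) and had 3 hashtags with enough cells. Over all T cells of a hashtag the share ran from 27.5% to 31.9%, with a median of 29.5%.

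**Figure D5:**
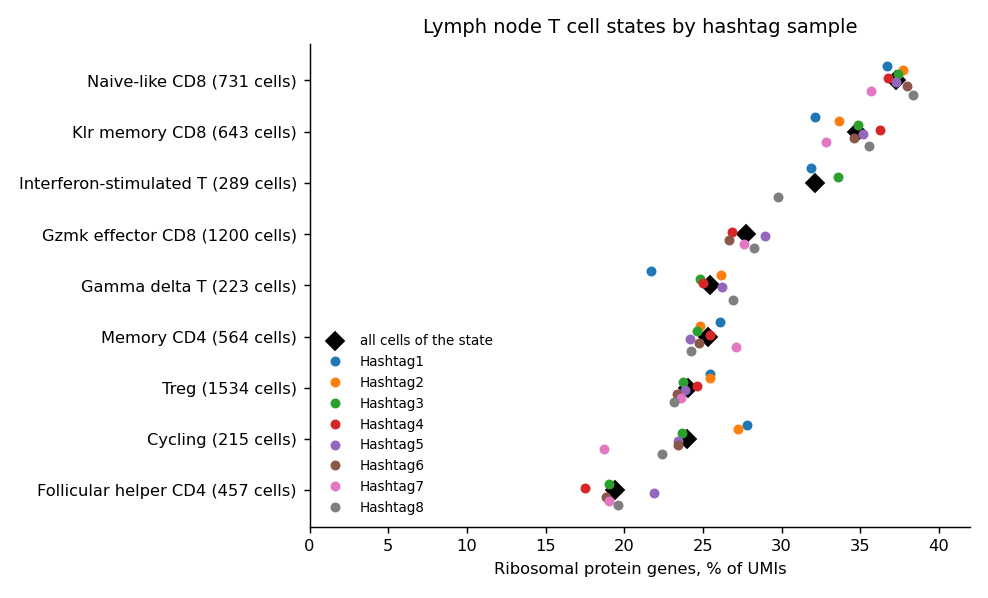
Share of UMIs from the members (x axis, percent) in 9 T cell states of the lymph node; diamonds are all cells of a state and coloured points the cells of 1 hashtag where it had at least 20. Naive-like CD8 points lie between 35.7% and 38.3% and follicular helper points between 17.5% and 21.9%, with no overlap.

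Depth differed between the states: the median was 6877 UMIs in naive-like CD8 cells and 2845 in follicular helper cells. Among cells of 4000 to 8000 UMIs the shares were 36.7% (359 cells) and 19.2% (125 cells), and among cells of 2000 to 4000 UMIs 32.7% (84 cells) and 20.5% (167 cells). Among cells of at most 2000 UMIs they were 29.6% (50 cells) and 17.03% (151 cells). The part of depth in the difference was not tested. Of 84 members with at least 100 UMIs over both states, 77 had a CPM past the same limit and higher in naive-like CD8 than in follicular helper cells, beside 10.6% of 6133 genes. Another 4 were lower, beside 48.9%: Rpl7l1, Rps6ka4, Rps6kb2 and Rps19bp1. This comparison is the pair of states with the highest and lowest summed share, so the members' direction was fixed by that choice. Among the ribosomal proteins and copies the median log2 ratio was 0.91, from -0.44 to 1.48.

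Within the member UMIs, 3 members were past that limit and higher in the naive-like cells, beside 2.56% of all genes set against the same UMIs. Another 11 were lower, beside 89.1%, and 5 of these 11 were kinases or Rps19bp1. The higher member share of the naive-like cells shifts other genes downward on this scale, so these shares of all genes are no even background. Rps19, mutated in Diamond-Blackfan anaemia, took 13.8 per 1000 member UMIs in naive-like CD8 and 9.54 in follicular helper cells. Rps20 took 24.4 and 17.7. Both were higher in naive-like cells in all 6 hashtags with both states. Rps6ka4 (MSK2) went the other way with 15.4 and 38.5 CPM, as did Rps19bp1 with 25.8 and 43.4 and Rps6kb2 (S6K2) with 14.7 and 23.4. Translation factors summed to 32292 CPM in naive-like and 24815 in follicular helper cells, and mitochondrial ribosome genes to 5136 and 6242. Ribosome biogenesis genes were highest in cycling cells, at 5992 CPM, although the share of the members there, 24.0%, was among the lower ones.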

How the data were processed

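The deposited files hold UMI counts per gene and cell barcode, which the authors made with Cell Ranger 3.1.0 on mm10 (GRCm38), per the submitters' processing notes. From these counts, barcodes under 200 genes or over 15% mitochondrial UMIs were left out in the heart (over 10% in the lymph node, where cells also had to carry 1 hashtag). Scrublet doublets were removed in the heart. Cells were clustered with Scanpy 1.11.5 (2000 variable genes without ribosomal protein genes, resolution 1), and clusters were named from marker lists. Counts were summed per class and library. Shares have Clopper-Pearson intervals and ratios exact conditional binomial intervals at 95%, checked on simulated data. They cover counting error only. The members, lists and rules were chosen with earlier results of these data known. Named were the members among the 5 with most UMIs, all copies and non-ribosomal matches, and the 3 highest and 3 lowest called ratios per class of the 8 largest. Alternatives varied filters, depth, scaling, clustering, free RNA and hashtags. CPM is not corrected for transcript length, so levels of different genes are not compared. The values of some members and related genes are not reported here.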

Additional observations from a re-analysis of the deposited data

Results flagged for a closer look

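In 7 heart classes both libraries had 2 hashtags with enough cells, and in 5 of them every 18-month hashtag lay on 1 side of every 2-month hashtag, beside 37.6% of all gene-by-class values in these classes. The log2 ratio of the class share was 0.1502 in ILC2, -0.05295 in T cells, -0.03293 in macrophages, -0.1782 in neutrophils and 0.03936 in vascular endothelial cells. The T cell sub-clusters with at least 20 cells in each library had ratios above 0, opposite to their class. The vascular endothelial value rests on few tagged cells (34 and 74 at 2 months, 47 and 54 at 18 months), and its untagged cells, 2692 and 2265, had 6.51% and 6.38%, the opposite direction. All of these are shares of summed UMIs. Some margins were small: in T cells the nearest hashtags were at 31.10% (Hashtag09) and 31.08% (Hashtag12). In macrophages they were at 14.82% (Hashtag10) and 14.65% (Hashtag12). By the median share per cell, the hashtags overlapped in macrophages, neutrophils and vascular endothelial cells, and did not in ILC2 and T cells. The differences between classes were not tested, and hashtags of 1 library are not separate libraries. Among 9 groups of hashtag samples examined for a value far from the others, 0 had one.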

How the results depend on the processing

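Against 2 classes higher at 18 months, 1 was higher under the authors' filter, at most 5% mitochondrial UMIs, equal weight per cell, Hashtag10 against Hashtag11 or against Hashtag12, and without the endocardial class. Thinning to 1000 UMIs, cells with Xist only, cells with Y-linked UMIs only, and Hashtag09 against Hashtag11 or Hashtag12 gave 0. Against 3 classes lower, free RNA subtraction, Y-linked cells and Hashtag10 against Hashtag12 gave 1, and Xist cells 0. Subsets held fewer classes. Against 50 members lower, TMM gave 111, median-of-ratios 105, resolution 0.5 27, free RNA 29, Xist cells 1, Y-linked cells 27, Hashtag10 against Hashtag11 29 and against Hashtag12 22, a fold of 1.5 10 and of 1.1 159. Against 78 higher, the authors' filter gave 13, 5% mitochondrial 16, thinning 12, Xist cells 4, Y-linked cells 7, Hashtag09 against Hashtag11 or Hashtag12 5, Hashtag10 against Hashtag11 5 and against Hashtag12 46, a fold of 1.5 24 and of 1.1 196, and no endocardial class 14. The spread in vascular endothelial cells, 0.133, was 0.155 at 5% mitochondrial, 0.166 thinned, 0.153 in Xist and 0.172 in Y-linked cells, 0.218 for Hashtag10 against Hashtag12, 0.0925 at 1000 UMIs and 0.0883 without non-ribosomal matches. The lymph node range, 17.9 points, was 18.0 under the authors' filter, 13.7 with hashtag doublets, 17.04 thinned, 17.4 per cell, 14.2 at resolution 0.5, and 17.7 to 18.1 leaving out each hashtag.

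Some classes called neither had log2 ratios of the share on both sides of 0 over the alternatives. They ran from -0.14 to 0.11 in T cells, -0.07 to 0.09 in dendritic cells and -0.02 to 0.07 in fibroblasts. In remaining cardiomyocytes they ran from -0.05 to 0.13 and in smooth muscle cells from -0.01 to 0.08. Among called classes, the neutrophil share changed sign under TMM (0.0405), median-of-ratios (0.0704), resolution 0.5 (0.23) and free RNA (0.17). The B cell share changed sign in Hashtag10 against Hashtag11 (0.16), against Hashtag12 (0.12) and with equal sub-clusters (0.0055). So did Rps27l in B cells thinned (0.0449), Rps6ka3 in dendritic cells thinned (-0.0699) and in Hashtag10 against Hashtag11 (-0.0147), Rps6ka3 in B cells in Hashtag10 against Hashtag11 (-0.12) and Hashtag12 (-0.31), Rpl10a in neutrophils at resolution 0.5 (5.8e-05), Rpl14 in neutrophils with free RNA subtracted (0.19), and Rps6kl1 in vascular endothelial cells in Hashtag10 against Hashtag12 (0.11). The causes were not tested. Of the other named-member values, 319 kept direction and call and 68 lost the call. The sub-cluster, shared-barcode and endocardial alternatives were chosen after seeing the data. No paired analysis was possible because each age has 1 heart library.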
